A study of Homo sapiens with 3 samples.

Results

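The spindle assembly and cytokinesis regulators described here are 10 genes, TPX2, PRC1, ECT2, ANLN, RACGAP1, CEP55, NUSAP1, CIT, HMMR and ASPM, of 20043 genes with a named probe on the array. They were chosen by name, together with their measured differences from DMSO: TPX2 and PRC1 were lower and ECT2 higher with both compounds, so these directions are a description and not a finding. HCC-LM3, an established human hepatocellular carcinoma (HCC) line that the labels describe as an adherent, epithelial adenocarcinoma, was treated for 48 h with 20 μM cyclopamine, with 20 μM GANT61 or with the vehicle DMSO. Cyclopamine antagonizes SMO, the receptor-like protein at the membrane step of Hedgehog (Hh) signaling, and GANT61 inhibits the Gli transcription factors at its nuclear end. Total RNA of each condition was measured on 1 Illumina HumanHT-12 v4 BeadChip. Every value below is a signal intensity on 1 array, and no test between conditions was possible. All 3 conditions are the same cell line.

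During mitosis, microtubules are nucleated around chromosomes and at the poles and are bundled into a bipolar spindle. After the chromosomes have separated, antiparallel microtubules between them form the central spindle, which recruits the activator of the small GTPase RhoA to the cell equator. RhoA then drives a contractile ring of actin and myosin, and the remaining bridge is cut by the abscission machinery. Transcripts of many of these regulators accumulate in G2 and M phase, and the genes are commonly highly expressed in dividing tumor cells. In RNA from a whole culture, fewer cells in G2 or M and less RNA per such cell cannot be told apart.

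The 10 genes have 13 probes, 2 each for RACGAP1, NUSAP1 and HMMR and 1 for each of the others. A probe counted as above background where its intensity exceeded 63.75, which is 1.5 times the most common intensity of the array. By this rule 9 of the 10 genes were above background, each on all 3 arrays, compared with 10441 of 20043 genes on at least 1 array. Where a gene had several probes, the brightest stood for it. As a measure of error, probe pairs of 2172 other genes gave an SD for a log2 difference of 0.32 to 0.46 for cyclopamine minus DMSO and 0.37 to 0.52 for GANT61 minus DMSO, depending on brightness. For GANT61 minus cyclopamine the SD was 0.18 to 0.22. It covers probes on these arrays and not cultures. The log2 differences of the DMSO array over all probes also had a larger SD, 0.39 against cyclopamine and 0.47 against GANT61, than those between the treated arrays, at 0.33. Of 10 hepatocyte markers, ALB (69.6 to 80.0 on the 3 arrays), KRT8 and KRT18 were above background, and AFP, APOA1, APOB, TTR, SERPINA1, FGB and KRT19 were not. No marker of endothelial cells (4 with a probe) or immune cells (4 with a probe) was above background, and 2 of 5 fibroblast markers were. Some of these markers moved with treatment. KRT8 had 1423, 335 and 286 with DMSO, cyclopamine and GANT61, log2 differences of −2.09 and −2.32, and COL1A1 had 205, 145 and 74.9, or −0.50 and −1.45. PDGFRB was just above background with DMSO (68.3) and not above it on the treated arrays. Their part in the results was not tested.

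**Figure D1:**
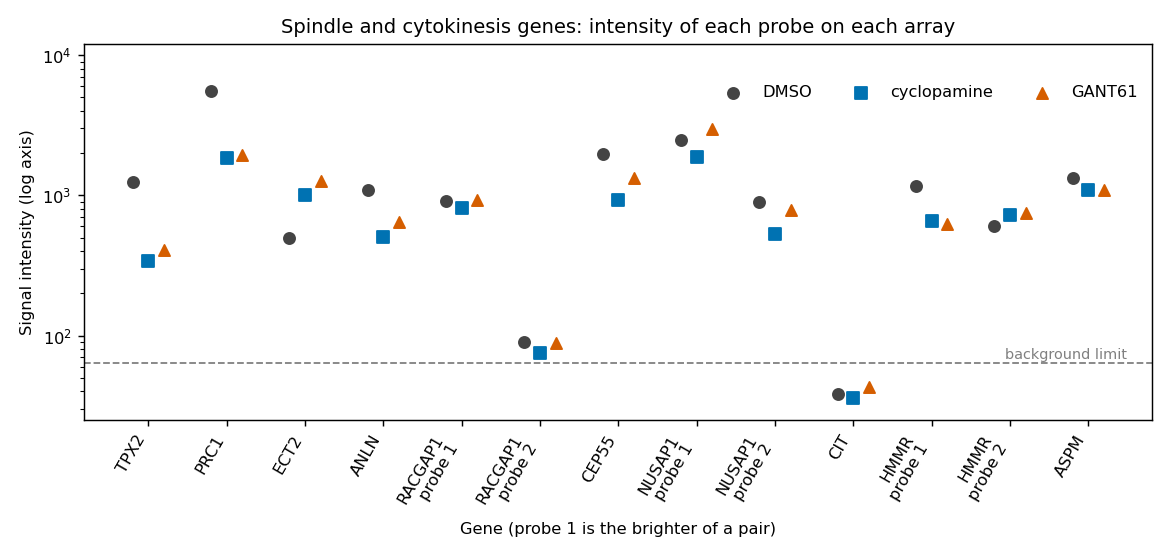
Signal intensity (log axis) of the 13 probes of the 10 genes, with 1 point per array (DMSO circles, cyclopamine squares, GANT61 triangles) and the background limit of 63.75 as a dashed line. The treated arrays sit well below DMSO for TPX2 and PRC1 and above it for ECT2, the HMMR probes go opposite ways, and CIT lies under the limit on all 3 arrays.

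TPX2 and the other genes of the spindle itself did not move alike. TPX2, which is released from importins by Ran near chromosomes, nucleates microtubules and activates the kinase Aurora A, gave 1249 in the vehicle control, 342 under cyclopamine and 405 under GANT61. The treated arrays were both low and close to each other, a decrease of 72.6% and 67.6% and log2 differences of −1.87 and −1.62, beside an SD between probes of 0.44 and 0.48 at this brightness. Among the 10441 genes above background, TPX2 stood at rank 65 from the lowest difference with cyclopamine and at rank 273 with GANT61. It has 1 probe, so its value has no second reading on these arrays.

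HMMR (RHAMM), a hyaluronan receptor that also binds microtubules at the spindle poles and interacts with TPX2, gave 1168, 658 and 626 with DMSO, cyclopamine and GANT61 by its brighter probe, or log2 differences of −0.83 and −0.90. Its other probe, which the platform annotation assigns to a different transcript of the gene, gave 602, 725 and 748, or 0.27 and 0.31. Both probes were well above background, so HMMR has no single direction on these arrays, and with the mean of its probes the differences were −0.28 and −0.29.

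NUSAP1, which binds and bundles microtubules near chromosomes, had 2490.3 with DMSO, 1878 with cyclopamine and 2952 with GANT61. Its other probe had 904, 533 and 788. With cyclopamine both probes were lower than with DMSO (−0.41 and −0.76). With GANT61 they lay on either side of DMSO (0.25 and −0.20), within the SD between probes of 0.42 and 0.48.

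ASPM, a spindle pole protein that is mutated in primary microcephaly, gave 1335 in the vehicle control, 1095 under cyclopamine and 1086 under GANT61. Its log2 differences of −0.29 and −0.30 were smaller than the SD between probes, 0.37 and 0.42.

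At the central spindle, PRC1 and ECT2 stood on opposite sides of DMSO while RACGAP1 stayed near it. PRC1, which crosslinks antiparallel microtubules in the midzone, gave 5509 in the vehicle control, 1842 under cyclopamine and 1955 under GANT61. It was 2.99-fold and 2.82-fold lower, with log2 differences of −1.58 and −1.49, and stood at ranks 158 and 348 from the lowest. The PRC1 levels of the treated arrays differed by 0.09 on the log2 scale, less than the SD of 0.21 for that comparison.

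RACGAP1 (MgcRacGAP) is the GTPase-activating subunit of centralspindlin, the complex that binds ECT2 at the midzone. Its brighter probe gave 914, 814 and 928 on the 3 arrays (DMSO, cyclopamine, GANT61), and its dimmer probe 90.8, 75.3 and 88.1. The log2 differences were −0.17 and 0.02 for the brighter and −0.27 and −0.04 for the dimmer, all below the SD between probes.

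ECT2, the guanine nucleotide exchange factor that activates RhoA for the contractile ring, had 496 with DMSO, 998 with cyclopamine and 1263 with GANT61. It was 2.01-fold and 2.54-fold higher, with log2 differences of 1.01 and 1.35, and its place among all genes was the 95.4 percentile with cyclopamine and the 96.7 percentile with GANT61. The difference with cyclopamine only just passed 2-fold. With normexp background correction (offset 50) and quantile normalization applied together it no longer did, and no member then counted as higher with cyclopamine or with both. ECT2 also has 1 probe. The distance between ECT2 and TPX2 was 2.88 on the log2 scale with cyclopamine and 2.97 with GANT61, and that between ECT2 and PRC1 was 2.59 and 2.84. These distances do not change when an array is multiplied by 1 factor. Other processing can change them: with normexp correction and quantile normalization, ECT2 was at 0.98 and TPX2 at −1.81 with cyclopamine.

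Of the genes of the contractile ring and of abscission, ANLN and CEP55 passed 2-fold under cyclopamine and CIT was not detected. ANLN (anillin), which links RhoA, actin, myosin and septins in the ring, had 1098 with DMSO, 506 with cyclopamine and 644 with GANT61. Its log2 differences were −1.12 and −0.77, that is, past 2-fold with cyclopamine and not with GANT61. CEP55, which recruits the ESCRT machinery to the midbody for abscission, had 1965, 921 and 1324, or −1.09 and −0.57. The CEP55 level with GANT61 lay between the other two. CIT (citron kinase), a RhoA-binding kinase of the midbody, had 38.6, 35.9 and 42.7 and was not above background on any array, so no difference is given for it.

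Of the 9 genes above background, 4 (TPX2, PRC1, ANLN and CEP55) were at least 2-fold lower with cyclopamine, compared with 6.31% of all 10441 genes, and 1 (ECT2) was at least 2-fold higher, compared with 4.7%. With GANT61, 2 (TPX2 and PRC1) were lower, compared with 9.64% of all genes, and 1 (ECT2) was higher, compared with 8.16%. With both compounds 2 were lower, compared with 4.65%, and 1 was higher, compared with 2.45%. These shares stand beside counts that helped to choose the genes, and nothing is read from them. The 10441 genes also include dim ones, which have little room to fall by 2-fold. With the limit at 2 times the most common intensity, 9415 genes remained, and still 659 were lower with cyclopamine and 1006 with GANT61. The shares of lower genes among all genes are thus held down by dim genes, here and for the lists below. Both comparisons use the same DMSO array. The 9 genes had medians of −0.83 (cyclopamine) and −0.57 (GANT61) on the log2 scale, beside 0.03 and 0.02 for all genes above background. The first of these is the value of the brighter HMMR probe, and with the mean of all probes the medians were −0.58 and −0.30. After scaling on reference genes, described further on, they were −0.15 and 0.15, so the second turned its sign. When the 9 genes were ordered by their difference with cyclopamine, they ran from TPX2 through PRC1, ANLN, CEP55, HMMR, NUSAP1, ASPM and RACGAP1 to ECT2. The last step, from RACGAP1 to ECT2, was 1.17, beside an SD between probes of 0.57 for such a step. With GANT61 the order ran from TPX2 through PRC1, HMMR, ANLN, CEP55, ASPM, RACGAP1 and NUSAP1 to ECT2, and the last step, from NUSAP1 to ECT2, was 1.10, beside an SD of 0.63. The order is a description: ECT2 stands last because of how the genes were chosen, and sorting makes the steps between neighbours small, so the steps show nothing about which genes differ.

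**Figure D2:**
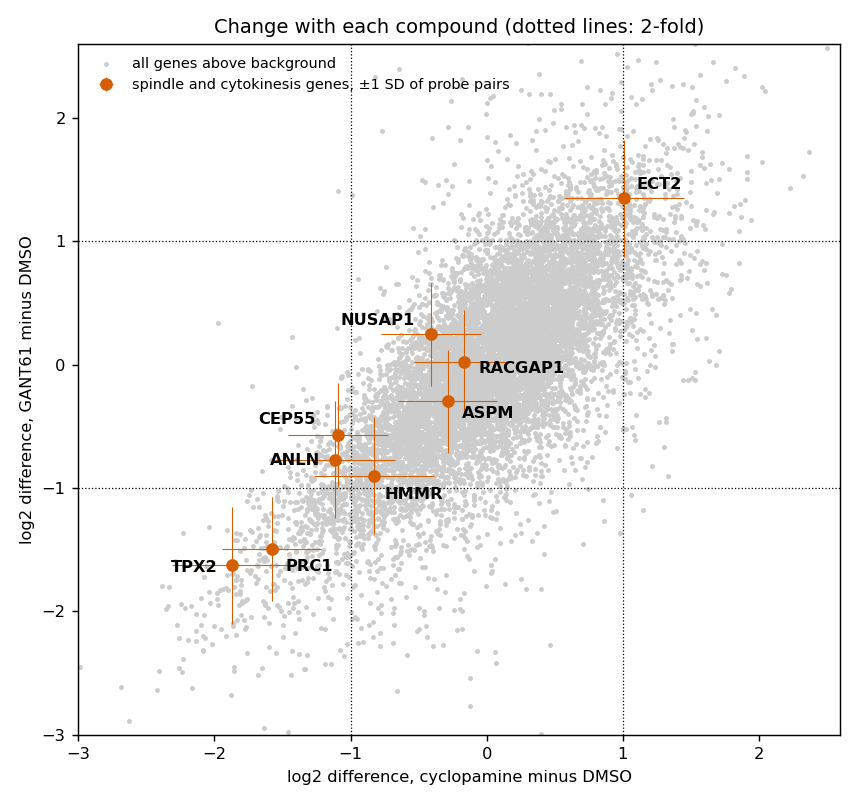
Log2 difference of each gene from DMSO with cyclopamine (horizontal axis) and GANT61 (vertical axis), for all 10441 genes above background (grey) and the 9 genes above background described here (orange, bars ±1 SD between probe pairs), cropped at −3 and 2.6. TPX2 and PRC1 lie past 2-fold at the lower left (−1.87 and −1.62, −1.58 and −1.49), ECT2 lies alone at the upper right (1.01 and 1.35), and ANLN and CEP55 are past the 2-fold line for cyclopamine only.

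The 2 compounds were given at the same dose and time, and their arrays can be compared without the DMSO array. None of the 9 genes differed by 2-fold between them. Of all genes, 3.4% passed this limit downward and 2.31% upward on the GANT61 array relative to the cyclopamine array. The largest differences were those of NUSAP1 and CEP55. NUSAP1 was 1.57-fold higher with GANT61 according to the brighter probe, a log2 difference of 0.65, and the dimmer probe gave 0.56. These were 3.18 and 3.19 times the SD between probes. CEP55 was 1.44-fold higher (0.52, or 2.55 times the SD). ANLN, ECT2, TPX2 and RACGAP1 were also higher with GANT61, by 0.35, 0.34, 0.24 and 0.19, and PRC1 by 0.09. ASPM and HMMR were at −0.01 and −0.07. In all, 7 of the 9 genes were higher on the GANT61 array and 2 lower, where 48.9% of all genes were lower. The median of the 9 was 0.24, and that of all genes was 0.01. A shift of this size was not particular to the 9 genes. In the lists described further on, the medians ran from −0.11 (septins) to 0.41 (spindle pole), with 0.29 for the central spindle. As each compound has 1 array, a difference between compounds and a difference between the 2 cultures cannot be told apart.

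The size of every difference from DMSO depended on how the arrays were scaled. Of 12 reference genes commonly used to scale expression data, 10 had a named probe, and the median of their log2 differences was −0.67 for cyclopamine and −0.72 for GANT61, beside −0.83 and −0.57 for the 9 genes. Scaling the arrays on these reference genes moved the median of all genes up to 0.71 and 0.74. Under this scaling TPX2 was at −1.19 and −0.91, PRC1 at −0.91 and −0.78 and ECT2 at 1.68 and 2.07 with cyclopamine and GANT61, so these 3 kept their side of DMSO but only TPX2, and only with cyclopamine, was still at least 2-fold lower. ECT2 remained at least 2-fold higher with both. Of all genes, 120 were then lower and 3122 higher by 2-fold with cyclopamine, against 659 and 491 before, and 224 and 3686 with GANT61, against 1006 and 852. ANLN was then at −0.44 and −0.05 and HMMR at −0.15 and −0.18. RACGAP1 (0.51 and 0.74), NUSAP1 (0.27 and 0.96) and ASPM (0.39 and 0.42) lay above DMSO with both compounds, and CEP55 lay below it with cyclopamine (−0.42) and above it with GANT61 (0.15). Which scaling is closer to the RNA content of the cells was not tested.

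**Figure D3:**
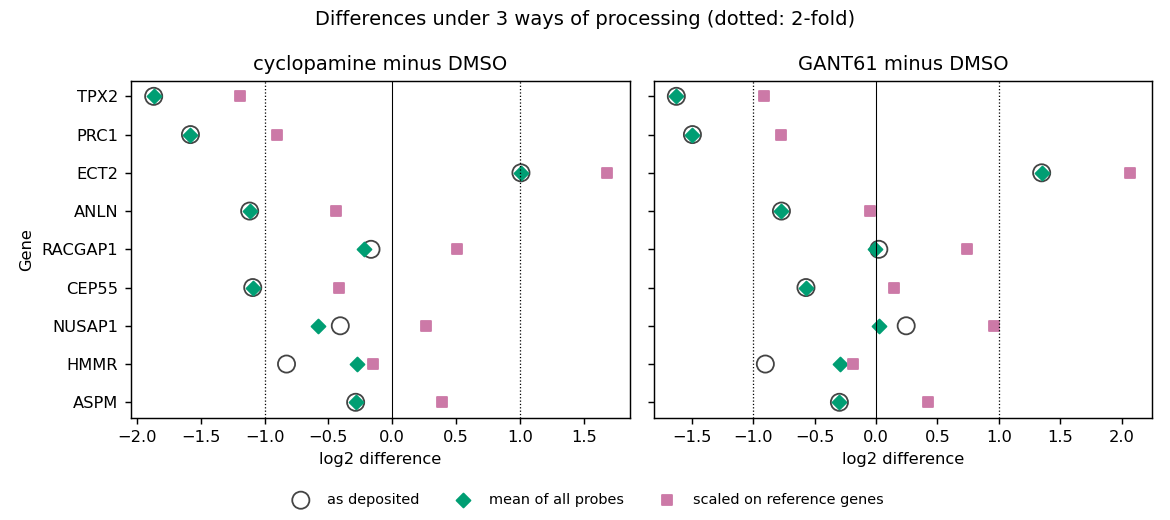
Log2 difference from DMSO of the 9 genes above background with cyclopamine (left) and GANT61 (right), from the deposited intensities of the brightest probe (open circles), from the mean of all probes (diamonds) and after scaling on the reference genes (squares). Scaling moves all genes to the right by the same amount, 0.67 and 0.72, and the mean of all probes shifts HMMR from −0.83 and −0.90 to −0.28 and −0.29.

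Genes that work in the same processes were described from 7 lists of 88 genes, of which 83 had a named probe and 78 were above background on at least 1 array. Of these, 11 were at least 2-fold lower with cyclopamine (14.1%, beside 6.31% of all genes), 11 with GANT61 (14.1%, beside 9.64%) and 7 with both (8.97%, beside 4.65%). At least 2-fold higher were 3 (3.85%, beside 4.7% of all genes), 3 (3.85%, beside 8.16%) and 1 (1.28%, beside 2.45%). The medians of the 78 genes were −0.10 with cyclopamine and −0.22 with GANT61. The counts of lower genes include WDR62 with cyclopamine and TUBGCP6 with GANT61, which passed 2-fold through a value below background. TUBGCP6 was named after its value was seen. The counts of each list below stand beside these same shares of all genes. The lists were written with earlier results of these data known, and the study picked KIF20A partly for its fall on these arrays. Of the 10 reference genes, 20% were lower with cyclopamine, 30% with GANT61 and 20% with both. Nothing is therefore read from the shares of the lists.

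Among 10 central spindle genes, 4 passed 2-fold downward under cyclopamine, 3 of them under both compounds, and the medians of the list were −0.76 and −0.47. KIF20A, the kinesin that carries the chromosomal passenger complex to the midzone, had 932 with DMSO, 318 with cyclopamine and 329.5 with GANT61. AURKB, the kinase of that complex, had 889, 307 and 413, and CDCA8 (borealin), its targeting subunit, 870.3, 265 and 391. KIF4A, the kinesin that works with PRC1 to set the length of the midzone, had log2 differences of −1.05 and −0.89. KIF23, the kinesin of centralspindlin and the partner of RACGAP1, had −0.76 and −0.65 on its brighter probe, whereas a probe close to background gave −0.05 and 0.21. INCENP, the scaffold of the passenger complex, was higher with GANT61, at 0.73. With cyclopamine it was at 0.16, below the SD between probes of 0.32, and its other probe was not above background. In all, 8 of the 10 genes lay below DMSO with cyclopamine and 7 with GANT61, beside 47.5% and 49.1% of all genes. Of the 10 reference genes with a named probe, 9 and 7 lay below it. PLK1, the mitotic kinase that prepares RACGAP1 for ECT2, was dim, at 78.0, 82.7 and 91.8.

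Among 16 spindle assembly genes, 3 passed 2-fold downward under cyclopamine and 1 under both compounds, and the medians were −0.62 and −0.41. TACC3, a spindle protein phosphorylated by Aurora A, gave 479 in the vehicle control, 134 under cyclopamine and 146 under GANT61 (−1.83 and −1.71), the differences closest to those of TPX2 in these lists. RCC1, the exchange factor that makes the Ran signal for TPX2, had 510.3, 194 and 277. CKAP5 (chTOG), a microtubule polymerase that acts with TACC3, was at −1.05 and −0.71. AURKA (Aurora A), the kinase activated by TPX2, had 1696, 913 and 981, and its 2 probes were close to each other, at −0.89 and −0.84 with cyclopamine and −0.79 and −0.63 with GANT61. Of the 16 genes, 12 lay below DMSO with each compound, beside 47.5% of all genes with cyclopamine and 49.1% with GANT61. KPNB1 (importin β), which together with importin α holds TPX2 inactive away from chromosomes, was higher, at 0.59 and 0.73. KPNA2, an importin α, was at −0.79 and −0.49 on its brighter probe and at 0.63 and 1.04 on a dimmer one. The dynactin subunit DCTN1 was at 0.72 and 0.46 on its brightest probe. A dimmer DCTN1 probe went the other way, with 125, 57.6 and 50.7, above background with DMSO only. The directions of KPNA2 and DCTN1 are thus not settled here. INCENP, KPNB1, KPNA2 and DCTN1 were named after their values were seen.

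Among 13 microtubule nucleation genes, TUBGCP2, a subunit of the γ-tubulin ring complex, was at least 2-fold lower with both compounds (−1.05 and −1.20). TUBG1, a γ-tubulin, was at 0.26 and 0.71 on its brightest probe. Dimmer TUBG1 probes were at −1.61 and −1.10 and at −2.11 and −1.90, so its direction is not settled here. TUBG1 was named after its values were seen. Subunits of augmin, the complex that branches spindle microtubules, went different ways. HAUS4 was at −0.63 and −1.51, HAUS1 at 1.00 and 0.92 and HAUS2 at 0.81 and 1.56. Of 8 spindle pole genes none was 2-fold away from DMSO by values above background. The pole protein WDR62, which like ASPM is a microcephaly gene, had 115 with DMSO and was not above background on the treated arrays, at least 1.8-fold lower with each. CEP152, PLK4 and CEP192, which act in centriole duplication, were at 0.26, −0.77 and 0.58 with cyclopamine and at 0.89, −0.29 and 0.39 with GANT61. Another CEP152 probe of similar brightness was at −0.28 and 0.76, so its direction with cyclopamine is not settled here.

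Of 12 genes of RhoA and the contractile ring none was at least 2-fold lower with either compound, beside 6.31% (cyclopamine) and 9.64% (GANT61) of all genes. With so few genes, nothing is read from this count. RHOA itself, the target of ECT2, had 4924 with DMSO, 3817 with cyclopamine and 4148 with GANT61. PFN1 (profilin), which feeds actin to the formins, was at 0.95 and 1.01 on its brightest probe and at −1.03 and −1.14 on its other, so its direction is not settled here. DIAPH1, a formin driven by RhoA, was at −0.86 and −0.42 and the myosin heavy chain MYH9 was at 0.17 and 0.75 on one probe and at −0.56 and −0.02 on another of similar brightness. The myosin light chain MYL9 gave 95.9 in the vehicle control. Its log2 difference was −0.36 with cyclopamine, and under GANT61 it did not exceed background (at least 1.5-fold lower). Of 6 septins, which assemble on anillin, SEPTIN6 was at −0.71 and −1.17 and SEPTIN2 at −0.86 and −0.96 (a dim probe of it at 0.26 and −0.19), while SEPTIN7 was at 0.69 and 0.60 and SEPTIN9 at 0.15 and 0.72.

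Among 13 abscission genes, 2 passed 2-fold downward and 1 upward under both compounds. VPS4A, the ATPase that remodels ESCRT-III, was at −1.13 and −1.26, and CHMP1A, an ESCRT-III subunit, at −1.23 and −1.12. CHMP2B, another subunit, was the higher one, at 1.04 and 1.23, from 469 with DMSO to 966 and 1097. ZFYVE19, a regulator of the abscission checkpoint, was at −0.75 and −1.12.

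**Figure D4:**
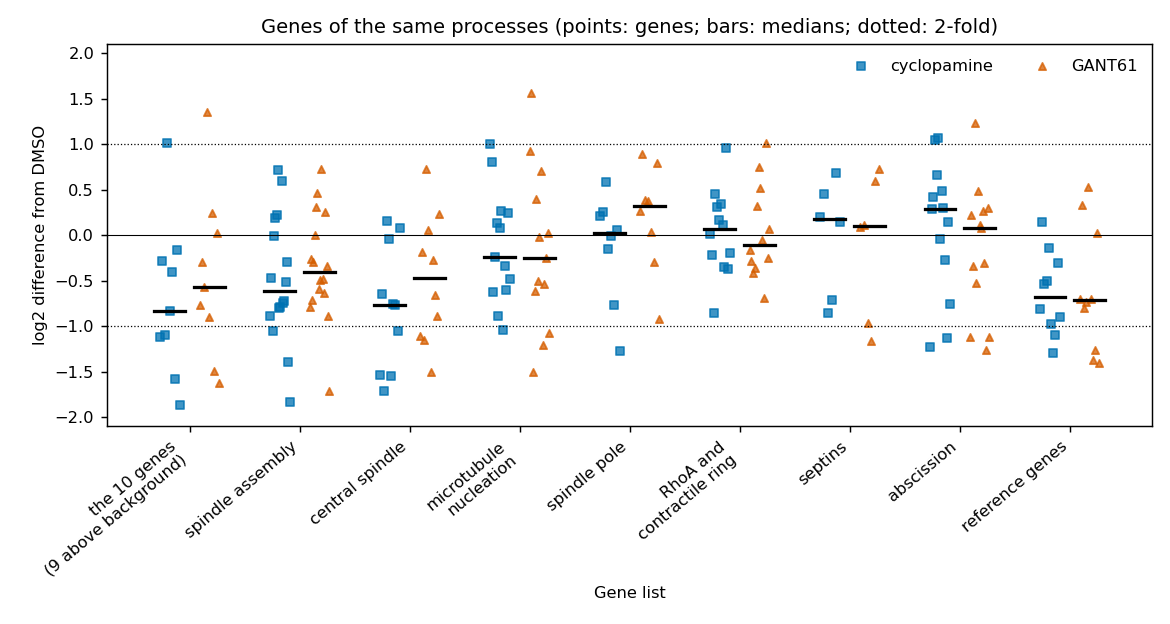
Log2 difference from DMSO of the genes above background in each list, with cyclopamine (squares) and GANT61 (triangles), 1 point per gene and black bars at the medians. The central spindle (medians −0.76 and −0.47) and spindle assembly lists (−0.62 and −0.41) lie lower than those of septins and abscission, and the reference genes (−0.67 and −0.72) lie as low.

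Among regulators known to act on transcription in G2 and M phase, FOXM1, the forkhead factor of G2/M genes that the study examines, had 874 with DMSO, 199 with cyclopamine and 215 with GANT61. In this list of 16 genes, 3 passed 2-fold downward and 1 upward under cyclopamine, and 3 downward and 2 upward under GANT61. These are 18.8% and 6.25% of the list for cyclopamine, beside 6.31% and 4.7% of all genes, and 18.8% and 12.5% for GANT61, beside 9.64% and 8.16%. LIN54, the subunit of the MuvB core that binds the CHR element described next, was at 1.39 and 1.29. NFYC, a subunit of the CCAAT-binding factor NF-Y, was at −1.14 and −1.09, and the pocket protein RBL2 at −0.74 and −1.07. CDK1, the kinase of mitotic entry, had 975 with DMSO, 1368 with cyclopamine and 2077 with GANT61. These values come from the brighter of 2 CDK1 probes. On that probe CDK1 was above DMSO on both treated arrays, like ECT2 and unlike TPX2 and PRC1. The dimmer probe was not compared, so the direction of CDK1 is not settled here.

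The promoters of the genes were examined for what they share beyond the array values. RefSeq promoter sequences (GRCh38.p14, from 250 bases before to 50 bases after a transcription start) were matched by symbol for 8 of the 10 genes, with 2 starts for ECT2. TPX2 and RACGAP1 were not matched. The cell cycle genes homology region (CHR), an element of G2/M genes bound by MuvB complexes, was searched as TTTGAA or TTTAAA on both strands. The CCAAT box, bound by NF-Y, and the Gli consensus named in the study, GACCACCCA, were searched on both strands as well. All 9 promoters held TTTGAA, compared with 15.2% of 35116 promoters in the table, and 7 held CCAAT, compared with 34.6%. At least 2 CCAAT matches were found in 5 of the 9, compared with 10.8% of all. None held GACCACCCA, which was present in 0.236% of all promoters. A match this rare would seldom occur in 9 promoters, so nothing is read from its absence. A match to either CHR form within 50 bases of the start was found in 8 of the 9 promoters, compared with 7.62% of all. The second ECT2 start was the one without such a match. The 50-base window was chosen after the positions were seen. PRC1, lower with both compounds, ECT2, higher with both, and CIT, under background, all held TTTGAA, so these letters did not separate the directions. These matches are a description of the letters and not of binding.

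The promoters of PRC1 and ECT2 are shown as those of the genes past 2-fold in opposite directions, and those of ANLN and HMMR for the doubled CHR match just before their start. Capitals mark matches to the CHR or CCAAT on either strand. The sequences lie at chr15:90994486-90994785 on the minus strand (PRC1), chr3:172750476-172750775 on the plus strand (ECT2, first start), chr7:36389612-36389911 on the plus strand (ANLN) and chr5:163460382-163460681 on the plus strand (HMMR).
PRC1: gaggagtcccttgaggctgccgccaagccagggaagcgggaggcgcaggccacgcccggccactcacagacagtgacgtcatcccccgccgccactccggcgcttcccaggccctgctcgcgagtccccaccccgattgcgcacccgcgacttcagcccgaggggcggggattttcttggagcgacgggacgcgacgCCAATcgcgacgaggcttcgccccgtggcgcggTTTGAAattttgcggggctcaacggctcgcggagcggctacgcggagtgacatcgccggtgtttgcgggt
ECT2: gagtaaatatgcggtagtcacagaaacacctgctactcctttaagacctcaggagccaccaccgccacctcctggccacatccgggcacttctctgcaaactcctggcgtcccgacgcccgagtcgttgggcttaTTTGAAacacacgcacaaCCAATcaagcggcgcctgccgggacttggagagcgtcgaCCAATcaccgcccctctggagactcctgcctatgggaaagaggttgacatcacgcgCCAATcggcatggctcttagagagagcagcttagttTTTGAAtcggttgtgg
ANLN: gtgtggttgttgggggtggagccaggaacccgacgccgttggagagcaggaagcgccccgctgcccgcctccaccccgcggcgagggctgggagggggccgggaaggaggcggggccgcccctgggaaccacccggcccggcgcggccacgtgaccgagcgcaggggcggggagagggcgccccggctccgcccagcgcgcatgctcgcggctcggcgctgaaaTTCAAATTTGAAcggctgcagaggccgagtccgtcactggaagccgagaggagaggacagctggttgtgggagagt
HMMR: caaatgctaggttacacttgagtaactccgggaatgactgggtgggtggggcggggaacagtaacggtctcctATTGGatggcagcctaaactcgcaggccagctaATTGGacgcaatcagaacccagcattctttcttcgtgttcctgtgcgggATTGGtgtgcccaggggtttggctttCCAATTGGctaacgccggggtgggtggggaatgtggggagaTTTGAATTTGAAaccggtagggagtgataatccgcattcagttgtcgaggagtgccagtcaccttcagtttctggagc

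In PRC1 a single CHR match lies at −20 to −15 from the start, with 1 CCAAT match at −53 to −49. In ECT2 the CHR matches lie at −115 to −110 and at 35 to 40, with CCAAT matches at −97, −58 and −2. The second ECT2 start has CHR matches at −242 and −182 and no CCAAT match, and the first of these is the same stretch as the match at 35, since the windows overlap. ANLN has a pair of CHR matches on opposite strands, at −26 to −21 and −20 to −15, and no CCAAT match. HMMR has 2 on the same strand, at −28 to −23 and −22 to −17, with 5 CCAAT matches, of which a pair on opposite strands overlaps.

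**Figure D5:**
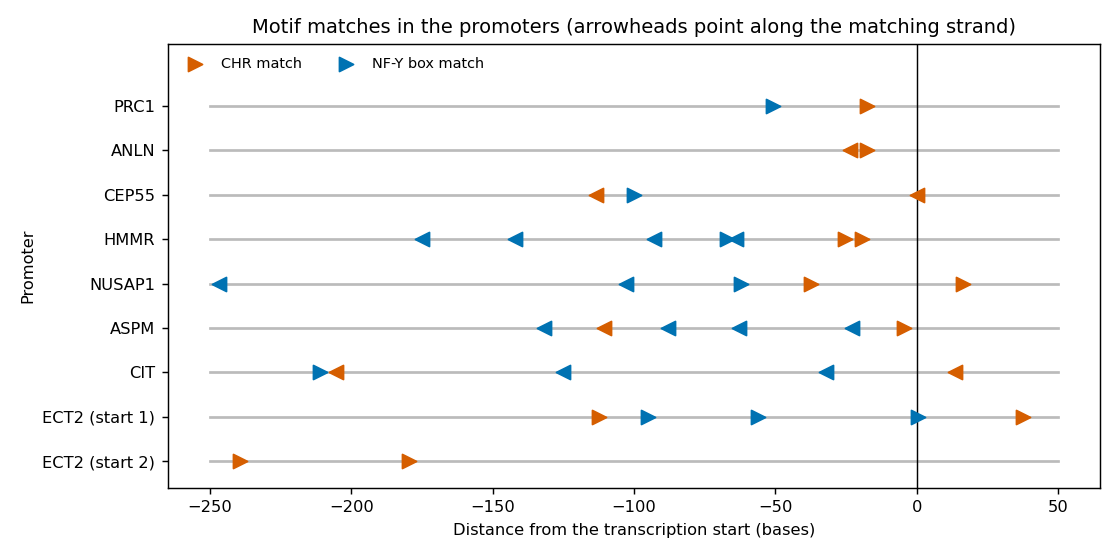
Position of matches to the CHR (orange) and to the box bound by NF-Y (CCAAT, blue) in the 9 promoters of 8 genes, as distance in bases from the transcription start, with arrowheads along the matching strand. PRC1, ANLN and HMMR have their CHR matches between −28 and −15, and ECT2 has its nearest at 35 to 40.

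The genes with the pattern most like that of TPX2 were taken as those with the smallest Euclidean distance between pairs of log2 differences (cyclopamine and GANT61, 3 arrays in all) among the 9091 genes above background on all 3 arrays. The 5 nearest to TPX2 were ARHGDIA, RAVER1, TACC3, PGAM1 and MAPK8IP3, at distances of 0.07 to 0.11. PGAM1, an enzyme of glycolysis, had 1805, 531 and 602 on the DMSO, cyclopamine and GANT61 arrays. In all 121 genes lay within 0.5 of TPX2. The 5 nearest to ECT2 were SLC4A5, ZKSCAN1, RB1CC1, ZC3H12C and RNF216, at distances of 0.04 to 0.06. RB1CC1 (FIP200), a subunit of the kinase complex that starts autophagy, had 743, 1531 and 1937. Within 0.5 of ECT2 lay 535 genes. Both counts rest on the same differences by which TPX2 and ECT2 were chosen. ECT2 lies nearer to the medians of all genes, where a fixed radius takes in more genes, so nothing is read from the counts.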

How the data were processed

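HCC-LM3 cells treated with DMSO, cyclopamine or GANT61 were compared on 1 array per condition, and samples were grouped by their labels. The authors deposited signal intensities of 47319 probes on a linear scale, normalized between arrays with software not given in the sources used here. Their medians were 47.7, 47.6 and 47.6. A second table of 6 columns before normalization was not used, because its headings match no sample. Of the probes, 30110 have 1 gene symbol in the platform annotation, 8 have several and 17201 are unnamed here, and 30071 matched GRCh38.p14 genes by identifier.

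Log2 intensities were subtracted, with a 2-fold rule, a background limit of 1.5 times the most common intensity (42.5) and the brightest probe of each gene. The SD between probes came from median absolute deviations in 5 classes of brightness, members left out. No p-value was computed, since precision is limited by having 3 arrays. Genes named were all members, up to 4 genes of each list by mean absolute difference and fixed partners of the members, FOXM1, and the 5 nearest genes to TPX2 and ECT2. Members and lists were chosen with earlier results of these data known. Alternatives were normexp correction (offset 50) with quantile normalization, subtraction of the most common intensity (offset 16), the mean of all probes, no filter or a limit of 2 times the most common intensity, scaling on reference genes, and 1.5-fold and 3-fold rules. Steps were tested on simulated data. Calculations ran in Python 3.11.15 (numpy 2.4.6, pandas 2.3.3), normexp in limma 3.58.1 under R 4.3.3, and plots in matplotlib 3.10.9.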

Additional observations from a re-analysis of the deposited data

How the results depend on the processing

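No paired analysis was possible because each condition has 1 array and no replicate numbers pair the samples. For the same reason no array was left out in turn. Probes near background limit what the arrays show for CIT, PLK1 and WDR62, and the SD between probes does not cover differences between cultures. The main counts of members and of the 78 pathway genes stand in the report. With normexp correction and quantile normalization together, 0 members were higher with cyclopamine and 0 with both. With the most common intensity subtracted, 2 pathway genes were higher with both. With the mean of all probes, 0 pathway genes were lower with GANT61 than with cyclopamine, in place of 1. With scaling on the reference genes (10 of the 12 intended), 1 member was lower with cyclopamine, 0 with GANT61 and 0 with both. Of the pathway genes, 2 were then lower and 15 higher with cyclopamine, 0 lower and 21 higher with GANT61, and 0 lower and 10 higher with both. At 1.5-fold, 4 members were lower with GANT61, 4 with both, and 1 was higher with GANT61 than with cyclopamine. Of the pathway genes, 27 were lower and 9 higher with cyclopamine, 22 and 12 with GANT61, 19 and 6 with both, and 5 and 4 with GANT61 relative to cyclopamine. At 3-fold, 1 member was lower with cyclopamine, 1 with GANT61 and 1 with both, and 0 were higher in each. Of the pathway genes, 2 were lower and 0 higher with cyclopamine, 1 and 0 with GANT61, 1 and 0 with both, and 0 were lower with GANT61 than with cyclopamine. In all, 37 of these counts moved by over 1.5 times and 91 did not. The 91 include all counts with no filter and with a limit of 2 times the most common intensity, which equalled the main counts. This tally is therefore no measure of how robust the counts are. No difference of a member that passed 2-fold changed direction under any of these alternatives. The cause of the shift of the reference genes was not tested.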
